A study of Mus musculus with 2 samples.

Results

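Inside the bodies of mouse genes, 290 regions carried structured ISL1 CUT&Tag signal in both replicates from embryonic retina. These regions are the unions of intervals of the 2 deposited peak lists that overlapped by at least 1 bp and had uneven coverage in both. Coverage was called uneven where the summed signal of an interval was under 95% of its width times its maximum signal, which takes more than a single fragment or a stack of identical ones. The maximum signal was 100 or less in both lists, the midpoint lay inside the span of a protein-coding gene, and no part touched the window of 1 kb to either side of a protein-coding gene's end. They are 290 of 13411 shared peaks of any shape on chromosomes 1 to 19 and X. The same rule gave 265 shared uneven peaks at gene ends and 462 between genes. The regions were chosen by recurrence, unevenness and signal height in these lists, and those values are therefore described without a test.

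CUT&Tag, in which an antibody guides the Tn5 transposase to cut and tag DNA beside its target in isolated nuclei, was applied to wild-type mouse retina at E13.5 with an antibody to ISL1. The single group had 2 replicates, and whether they came from separate animals or litters was not given. The labels list a pair of rabbit ISL1 antibodies without assigning them to replicates. No control antibody and no mutant tissue were analysed here, so binding by ISL1 and cutting of open chromatin cannot be told apart. The nuclei came from whole retina, so strong signal in few cells and weak signal in many cannot be told apart either. The lists held 120303 and 152161 intervals on these chromosomes, of which 6.10% and 5.84% were uneven. The number of reads behind each list is unknown, and signal was compared only within a list or by rank.

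ISL1 is a LIM-homeodomain transcription factor that works with POU4F2 downstream of ATOH7 in newborn retinal ganglion cells, the output neurons of the eye. Homeodomain proteins bind short sites built on the core TAAT, and LIM-homeodomain factors act in complexes bridged by the cofactor LDB1. Binding of such factors inside genes commonly lies in introns, where enhancers and alternative promoters are found.

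A set of these regions proved to lie at gene starts after all. Of the 277 regions on chromosomes covered by the RefSeq table of starts, 29 overlapped a window from 250 bases before to 50 after an annotated start, or 10.5% (95% Wilson interval 7.39 to 14.6, counting error only). The start was an internal one of the host gene in 27 cases and that of a long noncoding RNA in 2, Gm32755 inside Angel1 and Gm31677 inside Lrba. These internal starts lay at least 2195 bp from the outer 5′ end of the host span. The table held a usable start of the host for only 230 regions. Regions in other hosts could overlap only a start of another gene, which limits the share of 10.5%. Among 2560 flat shared peaks of gene bodies, whose coverage was constant, 72 overlapped a start window (2.81%, 2.24 to 3.53). The flat peaks were narrower, with a median width of 490 bp against 849.5 bp. They were also lower, with median maximum signals of 8 and 6 in replicates 1 and 2 against 25 and 22. The part of width and height in this difference was not tested. Among shared uneven peaks at gene ends the share was 72.6% (66.9 to 77.7) and between genes 1.35% (0.619 to 2.91). Seen from the annotation, 33 of 6389 start windows inside gene bodies and away from gene ends were overlapped (0.517%), and 0.101% of all start windows.

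The sequences below lie before these annotated starts. The 250 bases before the start are printed 5′ to 3′ on the strand of the gene, from RefSeq on GRCm38.p6, the assembly of build mm10. The first 9 are shown because the stretch of maximum signal of both replicates reached into the window around the start, and they are all the windows of which this held. Meis2 and Ptch1 are added as regulators of retinal development. Capitals mark GGGCGG or its reverse complement CCGCCC, the GC box bound by SP factors, and the homeodomain core TAAT or its reverse complement ATTA.
Tef: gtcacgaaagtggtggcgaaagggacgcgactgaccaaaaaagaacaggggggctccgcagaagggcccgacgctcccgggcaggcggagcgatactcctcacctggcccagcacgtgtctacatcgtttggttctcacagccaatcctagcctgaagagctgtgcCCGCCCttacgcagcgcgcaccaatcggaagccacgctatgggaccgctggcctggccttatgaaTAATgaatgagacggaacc
Gpx4: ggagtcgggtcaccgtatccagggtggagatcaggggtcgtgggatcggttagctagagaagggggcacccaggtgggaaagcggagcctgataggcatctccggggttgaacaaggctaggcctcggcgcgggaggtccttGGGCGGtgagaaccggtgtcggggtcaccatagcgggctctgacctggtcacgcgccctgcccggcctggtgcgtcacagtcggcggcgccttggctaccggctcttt
Adh5: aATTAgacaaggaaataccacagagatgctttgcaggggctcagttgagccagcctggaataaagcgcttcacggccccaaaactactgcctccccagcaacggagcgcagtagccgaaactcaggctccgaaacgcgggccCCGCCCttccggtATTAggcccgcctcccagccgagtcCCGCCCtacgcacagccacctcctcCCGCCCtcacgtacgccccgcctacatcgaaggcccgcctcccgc
Hnrnpl: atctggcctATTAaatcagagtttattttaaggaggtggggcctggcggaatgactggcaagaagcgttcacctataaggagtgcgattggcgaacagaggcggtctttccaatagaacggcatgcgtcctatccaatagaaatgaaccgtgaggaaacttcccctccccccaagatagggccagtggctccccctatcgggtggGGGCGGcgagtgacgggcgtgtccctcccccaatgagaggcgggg
Kctd7: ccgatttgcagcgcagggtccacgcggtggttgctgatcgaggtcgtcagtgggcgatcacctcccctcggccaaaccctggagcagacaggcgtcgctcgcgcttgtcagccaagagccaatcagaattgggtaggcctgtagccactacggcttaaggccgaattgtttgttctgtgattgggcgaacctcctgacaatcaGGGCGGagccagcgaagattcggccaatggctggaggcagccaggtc
Gtf2i: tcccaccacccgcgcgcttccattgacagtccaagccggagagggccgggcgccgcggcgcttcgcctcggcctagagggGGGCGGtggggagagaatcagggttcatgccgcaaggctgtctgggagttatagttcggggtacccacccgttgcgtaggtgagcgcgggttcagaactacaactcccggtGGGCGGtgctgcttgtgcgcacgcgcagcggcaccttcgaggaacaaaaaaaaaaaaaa
Gatad2a: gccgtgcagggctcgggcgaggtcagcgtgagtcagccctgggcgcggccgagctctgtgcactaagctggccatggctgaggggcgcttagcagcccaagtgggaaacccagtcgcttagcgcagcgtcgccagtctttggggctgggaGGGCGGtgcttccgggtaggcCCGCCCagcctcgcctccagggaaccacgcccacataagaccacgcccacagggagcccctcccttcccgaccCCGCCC
Ptprs: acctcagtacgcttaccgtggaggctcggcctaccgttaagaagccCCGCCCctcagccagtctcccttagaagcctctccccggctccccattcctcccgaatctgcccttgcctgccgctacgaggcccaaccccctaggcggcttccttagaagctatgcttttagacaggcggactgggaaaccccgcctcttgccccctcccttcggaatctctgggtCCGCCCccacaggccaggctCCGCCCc
Add3: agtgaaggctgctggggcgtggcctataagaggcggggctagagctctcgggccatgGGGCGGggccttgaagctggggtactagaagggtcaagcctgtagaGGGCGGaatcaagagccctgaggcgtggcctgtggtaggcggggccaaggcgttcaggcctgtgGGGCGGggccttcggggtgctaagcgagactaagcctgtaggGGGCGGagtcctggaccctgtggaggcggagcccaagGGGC
Meis2: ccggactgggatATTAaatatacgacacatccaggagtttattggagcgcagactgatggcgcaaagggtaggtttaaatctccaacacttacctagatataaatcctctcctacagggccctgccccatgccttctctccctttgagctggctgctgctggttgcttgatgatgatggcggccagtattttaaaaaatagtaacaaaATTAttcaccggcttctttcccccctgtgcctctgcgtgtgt
Ptch1: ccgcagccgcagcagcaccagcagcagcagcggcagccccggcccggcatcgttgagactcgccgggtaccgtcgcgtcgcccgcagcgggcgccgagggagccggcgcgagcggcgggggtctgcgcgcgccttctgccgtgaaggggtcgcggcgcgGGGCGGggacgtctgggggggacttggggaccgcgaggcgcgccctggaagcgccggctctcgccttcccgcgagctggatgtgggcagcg

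The Tef window, chr15:81811164-81811413 on the plus strand, held 1 GC box and 1 homeodomain core, and the maxima covered 96 and 104 of the 300 bases in replicates 1 and 2. The Gpx4 window (chr10:80053761-80054010, plus strand) held 1 GC box and no core, with 168 and 124 bases covered. The Adh5 window (chr3:138442843-138443092, plus strand) held 3 GC boxes and 2 cores, with 174 and 60 bases covered. The Hnrnpl window (chr7:28810640-28810889, plus strand) held 1 of each, with 28 and 206 bases covered. The Kctd7 window (chr5:130144633-130144882, plus strand) held 1 GC box, the Gtf2i window (chr5:134314761-134315010, minus strand) 2 and the Gatad2a window (chr8:69974384-69974633, minus strand) 3. The Ptprs window (chr17:56462222-56462471, minus strand) held 3 and the Add3 window (chr19:53142506-53142755, plus strand) 4. None of these 5 held a core, so that 3 of the 9 windows held one and all 9 held a GC box. The Meis2 window (chr2:116064620-116064869, minus strand) held 2 cores and no GC box, and neither maximum reached it. The Ptch1 window (chr13:63565736-63565985, minus strand) held 1 GC box and no core, and only the maximum of replicate 2 reached it, over 123 bases.

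Short motifs were counted in all 33 overlapped windows and set beside their share in all start windows, without a test of the difference. GGGCGG on either strand occurred in 25 of the 33 overlapped windows of 300 bases (75.8%), against 35.9% of all start windows and 27.7% of those inside gene bodies. ATTA, the core itself, occurred in 13 (39.4%) against 58.0% of all windows. CTAATG, a motif of the kind bound by ISL1, was found in 2 of 33 (6.06%) against 7.34%, TAATTA in 1 (3.03%) against 5.26% and TAATGG in 0 against 7.68%. In 33 windows such shares amount to few windows, and no difference is read from them. CAGATG, an E-box, occurred in 4 (12.1%) against 17.1%, and TGACAG, the site of TALE factors, in 5 (15.2%) against 18.9%. The 3 longer motifs with TAAT contain the core, so these counts overlap. The overlapped windows had a median GC content of 64.3% and 24 CpG dinucleotides, where other start windows inside gene bodies had 51.7% and 5. Base composition differed between these sets, and its part in the motif shares was not tested. Windows are not independent where a gene has several starts, as Gpx4, Aff1, Kansl1 and Gm31677 do.

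Regions at annotated starts had higher medians in both lists than those away from starts. The 29 had a median maximum signal of 42 in replicate 1 and 28 in replicate 2, and 27 of them reached at least 10 in both. The 248 regions away from annotated starts had medians of 23 and 20.5, and 162 reached 10 in both. Some of the 248 lay in hosts without a usable start in the table. The region at the Tef start (chr15:81810813-81811736) had maximum signals of 48 and 56, with the maxima 23.5 bp apart. TEF is a PAR bZIP transcription factor of the circadian output. The region at Gpx4 (chr10:80053635-80054232), which encodes a glutathione peroxidase that reduces lipid peroxides, had 66 and 39, with the maxima 37 bp apart. Gatad2a, a subunit of the NuRD chromatin remodelling complex, had 42 and 56 (chr8:69974108-69974809), and both maxima lay within 51 bp of the start, 50.5 and 39 bp upstream. At Cox5a, a subunit of cytochrome c oxidase, the maxima of 57 and 21 lay 138 and 159.5 bp downstream of the start (chr9:57521204-57521619). The 2 below 10 in a list lay in Kansl1 (7 and 23) and Lzts2 (30 and 8). The genes with a region at an annotated start were named after their values were seen, unless named under another rule, and these are examples.

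**Figure D1:**
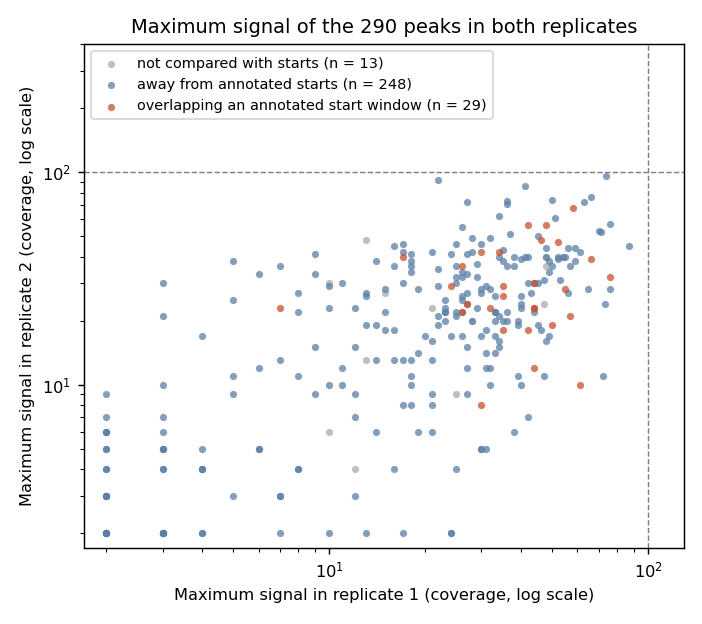
Maximum signal of each of the 290 regions in replicate 1 (x axis) and replicate 2 (y axis), as coverage on log axes, with dashed lines at the limit of 100 that the rule set. Regions overlapping an annotated start window (29 points) lie mostly in the upper right, with medians of 42 and 28, and the 13 grey points were not compared with starts.

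Signal height varied widely among the regions, and its ranks in the lists were correlated. The maximum signal ran from 2 to 87 in replicate 1, with a median of 25 and quartiles of 11 and 38. In replicate 2 it ran from 2 to 96, with a median of 22 and quartiles of 9 and 36. Across the 290 regions Spearman's rho of the maximum signal was 0.598, and 0.597 for the total signal. These are descriptions over regions, which share their libraries. Where both maxima were at least 10 (198 regions, 68.3%), rho was 0.292, and among the 29 at annotated starts it was 0.0998. The rho of the maximum was 0.319 at gene ends and 0.654 between genes. Within its full list the median region stood at the percentile 91.9 of total signal in replicate 1 and 89.4 in replicate 2, and 71 and 74 regions lay in the top 1%. The lowest stood at 3.37 and 4.04, so the class also holds weak intervals, with a maximum of 5 or less for 46 regions in replicate 1 and 50 in replicate 2.

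The regions were a median of 849.5 bp wide (quartiles 616.5 and 1137.5). In their median the summed signal was 58.9% of width times maximum in replicate 1 and 57.7% in replicate 2. The stretch of maximum signal was narrow, with medians of 91 and 96 bp in intervals with median widths of 607.5 and 634 bp. The position of this stretch was not used to choose the regions. The midpoints of the 2 maxima lay a median of 147.5 bp apart (quartiles 43.5 and 327), and in the median region this was 17.4% of the width. They were within 100 bp in 115 regions (39.7%, Wilson interval 34.2 to 45.4), and the stretches overlapped in 137 (47.2%, 41.6 to 53.0). At gene ends 29.4% (24.3 to 35.2) were within 100 bp and 35.5% (30.0 to 41.4) overlapped, and between genes 38.3% (34.0 to 42.8) and 43.7% (39.3 to 48.3). Of flat shared peaks in gene bodies, where the maximum spans the whole interval, 49.1% (47.2 to 51.0) lay within 100 bp. These include 592 of 2630 with identical ends in both lists, where the distance is 0 by construction. As a share of width, the median distance was 22.8% at gene ends, 20.6% between genes and 23.9% in flat peaks. The difference between classes was not tested. In 5 regions the ends were identical in both lists, namely in Wdr76, Anpep, Slc14a2, Ctif and Map2k6, named after their values were seen. The intervals of the 2 replicates shared a median of 369 bp, and in 29 regions under 100 bp.

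**Figure D2:**
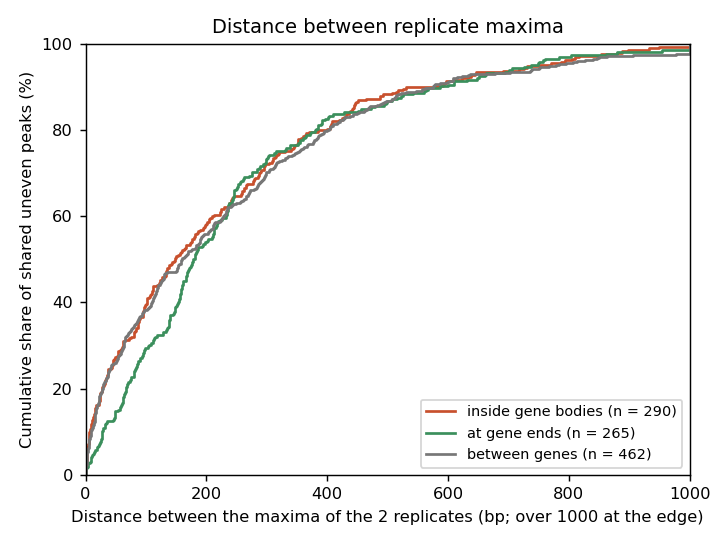
Cumulative share of shared uneven peaks (y axis, %) by the distance between the maxima of the 2 replicates (x axis, bp). The curves are for 290 regions inside gene bodies, 265 at gene ends and 462 between genes, and 39.7%, 29.4% and 38.3% of them lie within 100 bp.

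Most uneven intervals inside gene bodies lay outside the regions, which need an uneven partner in the other list. Of 2614 such intervals in replicate 1, 304 (11.6%, 10.5 to 12.9) belonged to the 290 regions, and of 3064 in replicate 2, 303 did (9.89%, 8.88 to 10.997). How many of the rest overlapped an interval of another shape in the other list was not counted. The least uneven region counted lay in Pde10a, at 94.8% and 73.1% of width times maximum, followed by one in Nbea at 94.5% and 28.8%. The nearest ones left out lay in Gria1 (95.2% and 72.4%) and Atp2c1 (58.2% and 95.5%), and 204 regions in all fell between 95% and constant coverage. The highest region counted lay in Galntl6, with maximum signals of 74 and 96, followed by Casz1 with 22 and 92. The lowest of the 10 left out for height lay in Sgcd (107 and 41) and Atrnl1 (92 and 115). The regions nearest a gene end had midpoints 1500 bp (Armc5), 1507 bp (Lrp8) and 1511 bp (Erf) away.

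The regions lay mostly in long genes, which also make up most of the summed gene spans. In all, 286 of 21631 protein-coding genes held at least 1 region inside their span (1.32%). A region lay in 1 gene in 286 cases and in 2 overlapping genes in 3. The remaining region lay in the gamma-protocadherin cluster, where 18 annotated genes overlap (chr18:37748769-37749651, maximum signals 10 and 30). The median span of the hosts, taking the longest where genes overlapped, was 132943 bp, against 17329 bp for all protein-coding genes. Hosts were picked by holding a region clear of gene ends, which favours long genes in advance. Of genes of 100 kb or longer, 175 of 2427 held a region (7.21%). This share and the 1.32% count each overlapping gene, so the 1 region of the gamma-protocadherin cluster adds 18 genes to the 286. With only the longest host of each region counted there were 266 hosts, of which 160 were this long. Genes over 300 kb made up 30.4% of the summed gene spans and held 26.2% of the regions, and those of 100 to 300 kb made up 28.9% and held 35.2%. Genes of 20 to 100 kb made up 32.2% and held 31.4%, and those under 20 kb made up 8.52% and held 7.24%. By chromosome the regions numbered from 4 on X to 25 on chromosome 11, where 10 lay in Sfi1 and Tex14.

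Along the host gene the regions were spread widely. The midpoint lay a median of 23743 bp from the nearest protein-coding gene end (quartiles 8679 and 64759), and 93 regions were over 50 kb away. The farthest lay 757392 bp from any end. For 230 regions the strand of the host was known from the start table, and 133 of these lay nearer the 5′ than the 3′ end of the span (57.8%, 51.4 to 64.0). Without regions at annotated starts the share was 53.0% (46.1 to 59.7) of 202. The first 10% of the span held 25 regions, 9 of them at an annotated start, and the last 10% held 13, of which 0 were at a start. Both outer bins lose sequence to the windows at gene ends. From the nearest annotated start of any gene type the midpoint was a median of 24368 bp away, and 96 of 277 regions were within 10 kb of one. Starts of hosts missing from the start table could not count here.

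**Figure D3:**
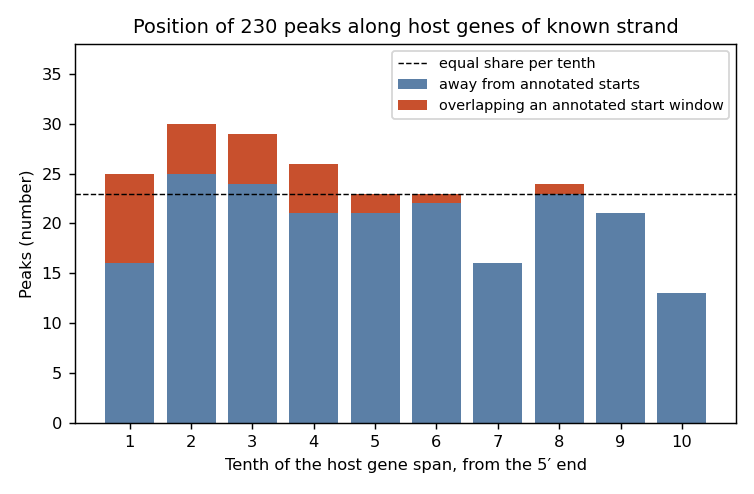
Number of regions (y axis) in each of 10 equal bins of the host gene span from the 5′ end (x axis), for 230 regions in hosts of known strand, with those overlapping an annotated start window in orange and the dashed line at an equal share. The first bin holds 25 regions, 9 of them at starts, and the last holds 13.

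Transcription factors of the developing retina appeared among the hosts in small numbers. Pax6, a master regulator of eye development, held 1 region at chr2:105674125-105674991, 5662 bp inside the gene from its 5′ end, with maximum signals of 27 and 33. Its maxima lay 425 bp apart. It was the only 1 of 30 retinal progenitor regulators with a region (3.33%, against 1.32% of all genes), and with a reciprocal overlap of 50% the count was 0. Meis1 and Meis2, TALE homeobox factors of retinal progenitors, were 2 of 12 TALE genes with a region, and 1 remained under that overlap. The Meis2 region (chr2:116063843-116064745) had 26 and 36 with the maxima 36.5 bp apart, and the Meis1 region (chr11:19010472-19011385) had 21 and 42 with 118 bp between them. Both lay near the 5′ end of the gene, at 3243 and 8723 bp from it, although only the Meis2 region overlapped an annotated start.

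Zinc finger regulators of neural development formed a larger group, with 5 of 34 genes (14.7%). The share was 1.32% of all protein-coding genes and 7.21% of those of 100 kb or longer. The genes of this list are long, with a median span of 162332 bp. Casz1, a factor of the temporal identity of retinal progenitors, had 22 and 92 (chr4:148940214-148941303) at 90.6% of the span. Zfp536, a repressor of neuronal differentiation, had 35 and 26 (chr7:37769492-37770865), and Zfp423, a partner of EBF factors, had 27 and 24 (chr8:87958928-87959759). Both of these overlapped an internal start within the first 1% of the span. Tshz2 had 40 and 24 and Zfp608 had 25 and 9. The group made up 0.705% of the summed gene spans and held 1.72% of the regions. That share rests on 5 regions, and the difference was not tested. With annotated starts counted as gene ends, 3 genes of the list held a region.

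Other regulators lay further inside. Rora, a nuclear receptor that acts with RORB in retinal differentiation, held the region ranked 5 by total signal (chr9:69099134-69100380), with 45 and 50, 446354 bp from its 5′ end. It was the only 1 of 34 nuclear receptors (2.94%, against 1.32% of all protein-coding genes and 7.21% of those of 100 kb or longer). Foxp4, a forkhead factor, held the region ranked 10 (chr17:47877153-47879219) with 50 and 36. Foxo1 had 16 and 18 and Sox5, a SoxD factor, 31 and 5, so that 3 of 34 genes of that list held a region (8.82%). With a reciprocal overlap of 50% between replicates, 0 did. Among chromatin regulators 4 of 48 did (8.33%). These were Tle4, a Groucho corepressor, with 40 and 39 and maxima 27 bp apart, the remodeller gene Chd7 with 18 and 38, Tet3, which oxidises methylated cytosine, with 30 and 17, and Auts2 with 21 and 8. Ptch1, the hedgehog receptor and itself a target of the pathway, was the only 1 of 52 signalling genes (1.92%). It had 24 and 29 and was lost under the same overlap. The SoxD and forkhead list and the chromatin list made up 0.674% and 0.704% of the summed spans. They held 1.03% and 1.38% of the regions. The nuclear receptor and signalling lists made up 0.466% and 0.433% and held 0.345% each.

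Axon guidance genes held 7 regions in 7 of 52 genes. The list made up 1.27% of the summed spans and held 2.41% of the regions. That share rests on 7 regions, and the difference was not tested. Ephb2, a receptor for ephrins that patterns retinal axons, had 44 and 30 (chr4:136738268-136739160). Dpysl2, which encodes the collapsin response mediator CRMP2, had 35 and 43 (chr14:66868626-66869387). The semaphorin receptor gene Plxna4 had 38 and 36 (chr6:32288617-32289074), and Ephb1, which directs ipsilateral retinal axons at the chiasm, had 12 and 23 (chr9:102211509-102212401). Epha5 with 25 and 4, Plxnc1 with 21 and 6 and the Slit receptor gene Robo2 with 2 and 6 were low in at least 1 list. None of the 7 overlapped an annotated start, but the start table held no usable start of Plxna4 or Dpysl2.

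Synaptic adhesion and organiser genes had the highest share of any list, 8 of 45 genes (17.8%), and also the longest genes, with a median span of 767297 bp. They made up 3.28% of the summed spans and held 3.45% of the regions, close to equal. Tenm3, a teneurin that matches connections in the visual system, held 2 regions, one at chr8:48843052-48844068 with 49 and 34 and maxima 15 bp apart, the other at chr8:48555333-48556007 with 16 and 45 and 22 bp. Nlgn1, a postsynaptic partner of neurexins, held 2 as well, with 72 and 11 and with 19 and 14. Ptprs, a receptor phosphatase, had 52 and 47 at an internal start (chr17:56461943-56462807). Adgrl3 had 39 and 19, Tenm4 13 and 26, and Flrt3, nested in Macrod2, 22 and 19. Ptprt with 2 and 5 and Ctnnd2 with 2 and 3 were low in both lists.

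Immunoglobulin adhesion genes held a region in 2 of 30 cases (6.67%), Mdga2 with 41 and 86 and maxima 7 bp apart (chr12:67059164-67060264) and Ntm with 40 and 23. Of 34 cadherins and protocadherins of the list, which made up 1.04% of the spans, 0 held one. Kcnh1, a potassium channel gene, was the only 1 of 40 voltage-gated channel genes (2.50%) and held 2 regions, with 70 and 53 over just 90 bp and with 10 and 23. Grid1 was the only 1 of 37 neurotransmitter receptor genes (2.70%), with 3 and 2. Both shares of genes lay above the 1.32% of all genes, while the 2 lists made up 1.24% and 1.22% of the summed spans and held 0.690% and 0.345% of the regions.

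For genes that define ganglion cells and the other retinal neurons the counts were 0 of 34 ganglion cell fate regulators, 0 of 26 ganglion cell differentiation genes, 0 of 22 photoreceptor genes, 0 of 22 amacrine and horizontal cell genes, 0 of 18 bipolar and Müller glia genes and 0 of 21 LIM-homeodomain factors and cofactors. The median span of the genes in these 6 lists was 8721 to 28354 bp, and each list made up at most 0.187% of the summed spans. With 1.32% of all genes holding a region, counts of 0 in lists of this size are near the background and say nothing particular about them. In replicates 1 and 2 taken singly, uneven intervals lay inside 7 and 9 of the 34 ganglion cell fate regulators. They lay inside 5 and 5 of the 26 differentiation genes. Over all lists, 230 and 238 of 703 genes held one in a single replicate. The share over all protein-coding genes was not counted, so nothing particular is read from these counts. Among the comparison lists 0 of 22 ISL1-dependent heart and pancreas genes, 0 of 20 housekeeping genes and 0 of 30 liver, muscle and immune genes held a region. Of 24 genes of other eye and vascular cells 3 did (12.5%), Kdr with 31 and 14, Flt1 with 28 and 20 and Tek with 2 and 3. These 3 are endothelial receptor genes, while the endothelial genes Pecam1 and Cdh5 of the same list held no region.

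Over all 23 lists, 39 of 703 genes held a region (5.55%), above the 1.32% of all protein-coding genes. The same genes made up 14.0% of the summed gene spans and held 42 of the 290 regions (14.5%). The share of regions was thus close to the share of gene sequence, and no enrichment of the lists is read from it.

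**Figure D4:**
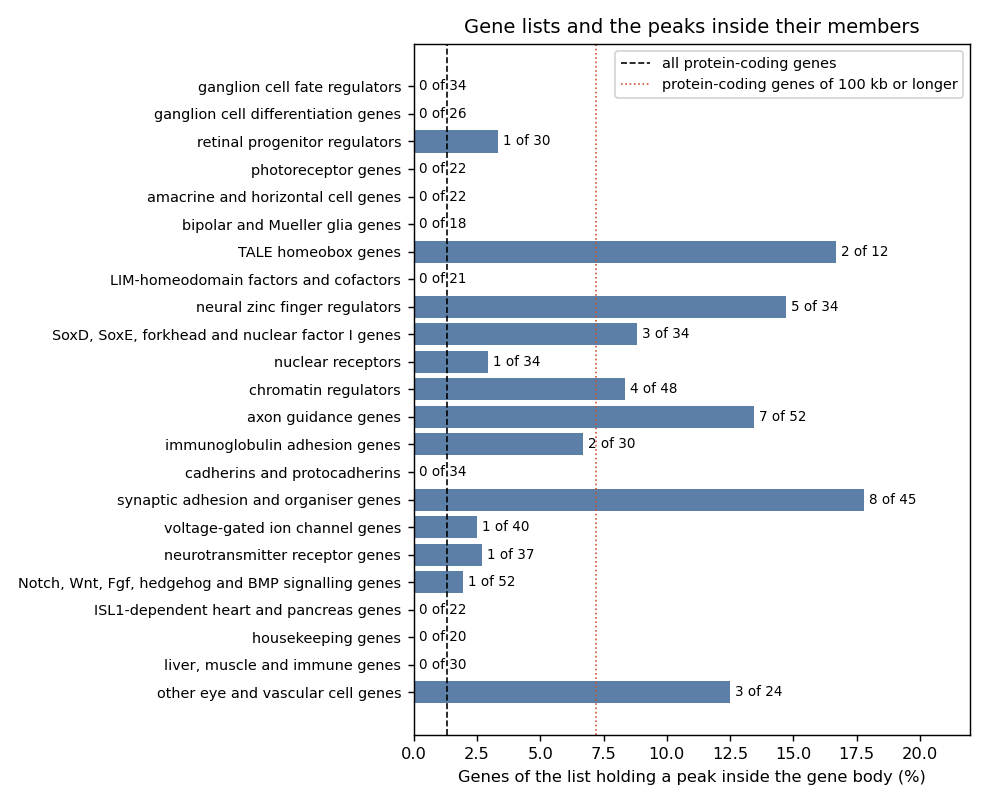
Share of the genes of each list that held at least 1 of the 290 regions (x axis, %), with the counts beside the bars. The dashed line is the share among all protein-coding genes (1.32%) and the dotted line that among genes of 100 kb or longer (7.21%); synaptic adhesion (17.8%), TALE (16.7%) and zinc finger (14.7%) lists lie highest.

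Most of the best-ranked regions lay in genes outside these lists. Ranked by the mean rank of total signal, the first lay in Ttc34 (chr4:154840806-154852842), with maximum signals of 53 and 31. At 12037 bp it was also the widest, and its maxima lay 8821 bp apart, so the 2 lists had their highest signal at different places within it. The next lay in Klhdc4 (chr8:121821995-121827896, 37 and 51), then in Sfi1, Galntl6 (chr8:57958108-57959042, 74 and 96) and Rora. Angel1 (58 and 68), Tex14, Nuak2 (66 and 76), Stam2 (17 and 42) and Foxp4 completed the first 10. Galntl6, a glycosyltransferase gene of over 1 Mb, had the highest maximum in replicate 2. Among the regions ranked 11 to 25 were those in Tef, Tchh (36 and 71), Pdzrn3 (50 and 74), Atp8a2 (76 and 57), Wdr76 (71 and 52), Spata17 (48 and 40), Aff1 (35 and 29), Gpx4, Dytn (30 and 46), Mepe (27 and 41), Nbea (56 and 44) and Stox2 (57 and 36). Further regions of Tex14 and Sfi1 made up the rest. Several of these genes, such as Tchh of hair follicles, Mepe of bone and Tex14 of germ cells, are known mainly from other tissues.

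Repeated regions within a gene were few. Of the 286 host genes, 18 held 2 or more regions, and only Sfi1 and Tex14 held more than 2. Sfi1, which encodes a centrin-binding protein of the centrosome, held 6 within 56145 bp of its 71498 bp span (chr11:3131850-3203347). Their maximum signals were 34 and 15, 7 and 13, 51 and 61, 35 and 38, 54 and 40, and 22 and 35. Other intervals crowded around them, with 7 to 14 in replicate 1 and 8 to 16 in replicate 2 within 10 kb, where the median region had 2 in each list. Sfi1 as a whole held 43.4 and 51.7 intervals per 100 kb in replicates 1 and 2. The medians of 4941 genes of at least 50 kb were 4.68 and 5.68, and Sfi1 stood at the percentile 99.98 of these genes in both lists. Whether copied sequence or uneven mapping contributes to this crowding was not tested.

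Tex14, which encodes a protein of germ cell intercellular bridges, held 4 regions within 28608 bp. They had maximum signals of 48 and 44, 52 and 39, 87 and 45, and 49 and 38, and their maxima lay 488, 84, 97.5 and 98.5 bp apart. All 4 were high in both lists and ranked among the first 27. Unlike in Sfi1, few other intervals lay nearby, 2 or 3 in replicate 1 and 1 to 3 in replicate 2 within 10 kb. The gene held 10.6 and 6.63 intervals per 100 kb, at the percentiles 95.5 and 63.7. With both genes left out, 280 regions remained, and the share of maxima within 100 bp was 39.3%.

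**Figure D5:**
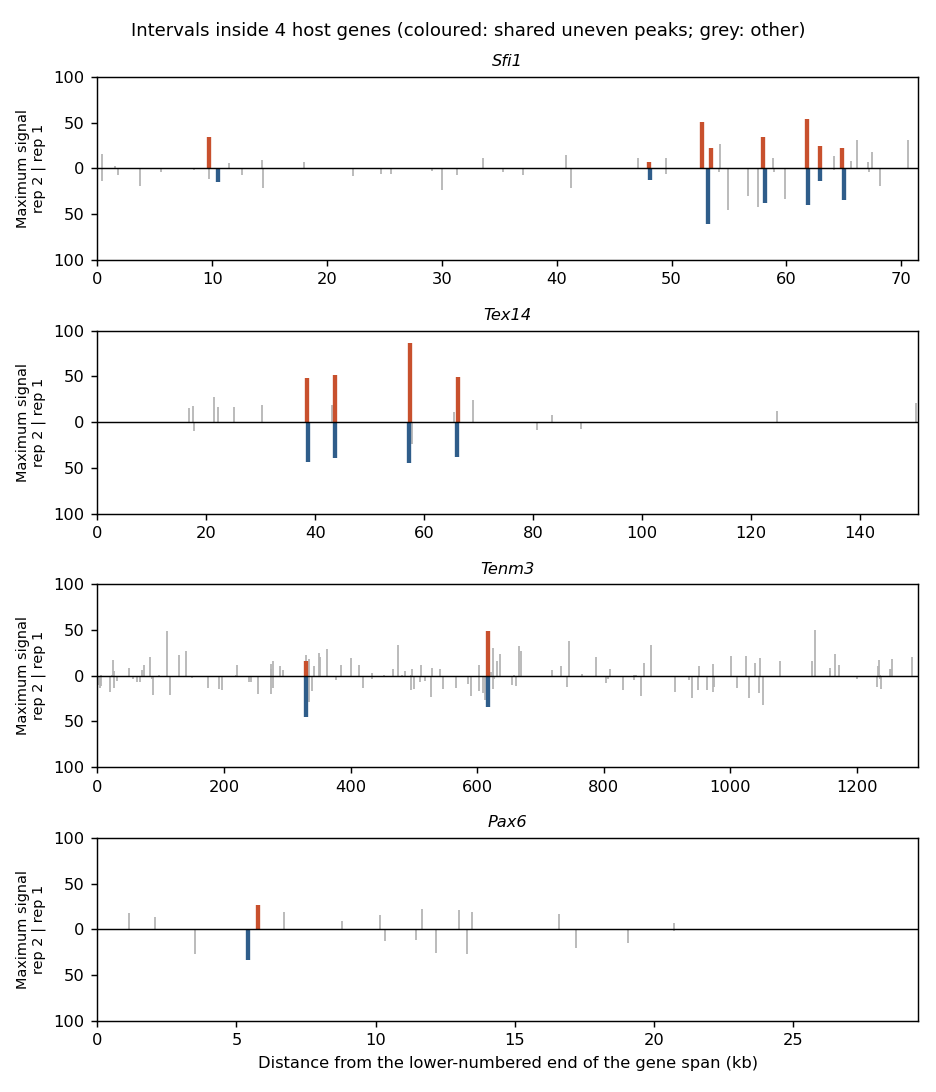
Intervals inside Sfi1, Tex14, Tenm3 and Pax6 by distance from the lower-numbered end of the gene span (x axis, kb), with the maximum signal of replicate 1 upward and of replicate 2 downward (y axis, coverage). Coloured bars are intervals of the shared uneven peaks, which can join several intervals of a list, and grey bars are all others; Sfi1 holds 6 such peaks amid many other intervals and Tex14 holds 4 amid few.

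The other genes with 2 regions were Atg4a, Atp8a2, Gm40363, Gm7592, Gse1, Inpp5a, Kcnh1, Myo3a, Nbea, Nedd4l, Nlgn1, Pag1, Pde1c, Spata16, Tenm3 and Tmem267. In Gse1, a gene linked to the CoREST complex, both were high (24 and 41, 28 and 49), 140227 bp from end to end. In Nbea, which encodes neurobeachin, they had 56 and 44 and 29 and 23, within 28833 bp. In Inpp5a, a phosphatase of inositol trisphosphate, they had 15 and 28 and 9 and 33. In Myo3a, a myosin of photoreceptors and hair cells, they lay within 3247 bp, with 12 and 15 and with 18 and 13. The regions in Gm7592, with 6 and 12 and with 3 and 7, lay in a gene whose interval density stood at the percentiles 98.2 and 99.6. In Atp8a2, Pag1, Pde1c and Atg4a a high region was paired with a low one, for example 76 and 57 with 6 and 5 in Atp8a2.

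Other annotated genes rarely lay under the regions. A long noncoding RNA gene was overlapped by 19 of 290 (6.55%, 4.23 to 10.0), against 5.02% (4.25 to 5.92) of flat shared peaks in gene bodies. A pseudogene was overlapped by 4 (1.38%, 0.538 to 3.49) against 0.608% (0.375 to 0.986). In 18 regions no other interval of either list lay within 10 kb, while 15 had at least 5 others in both lists. These 15 were the 6 of Sfi1, 2 each of Tmem267 and Gm40363, and those of Lrba, Zfp536, Pax6, Dlg4 and Arid4a, of which Lrba, Dlg4 and Arid4a were named after their values were seen.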

How the data were processed

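CUT&Tag intervals of ISL1 in E13.5 retina came as 1 list per replicate, from 2 replicates of 1 group. Build mm10 and the tools Bowtie2, FastQC, SEACR and MACS2 come from the submitters' processing notes, which state neither versions nor roles. Nothing used here says which caller, threshold, control or duplicate filter applied. The authors deposited whole-number signal, summed and maximal per interval, in the layout of SEACR output. Whether duplicate reads were removed would change these sums.

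Intervals were joined where they overlapped by 1 bp, and coordinates are 1-based in mm10. Genes and starts came from RefSeq tables of GRCm38.p6, with 21631 protein-coding genes. All 703 list symbols matched. Windows on opposite strands that overlapped were reverse complements in 1910 of 1910 pairs. The rule, lists and measures were chosen with earlier results of these data known. Named genes are hosts of 2 or more regions, hosts of the 25 best ranks, list genes with a region, and regions nearest the thresholds. Genes with a region at an annotated start were added after their values were seen, and values are given for all axon guidance and synaptic genes with a region, beyond the 6 the rule allows. Python 3.11.15, pandas 2.3.3 and scipy 1.17.1 were used, and the procedure was tested on simulated lists. With 1 group no test between groups was possible, and no chance test was made. Alternatives changed the evenness, height, overlap and window limits, and used single replicates.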

Additional observations from a re-analysis of the deposited data

How the results depend on the processing

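Requiring a reciprocal overlap of 50% left 165 regions in place of 290, and 162 of the 290 were found again. Under it 6 genes held 2 or more regions, the maxima lay a median of 95 bp apart and rho was 0.681. Of the uneven intervals of replicates 1 and 2 inside gene bodies, 6.31% and 5.39% belonged to regions. With a maximum of at least 10 in both lists 198 regions remained, 11 genes held 2 or more and rho was 0.292. Of the uneven intervals of replicate 1, 10.3% then belonged to regions. With a limit of 50 the shares were 10.1% and 8.55%. The next alternatives, and leaving out Sfi1 and Tex14, were chosen after seeing the data. Counting the ends of all RefSeq gene types, the median distance to a gene end was 15924 bp. With annotated starts counted as gene ends, 254 regions remained. That 0% of them overlapped a start window was fixed by this filter and is not a result.

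Each replicate alone, with the other left out, gave 2614 and 3064 regions, 439 and 583 genes with 2 or more, median host spans of 97841 and 101193 bp, 230 and 238 list genes, and 5.31% and 3.11% at annotated starts. Other evenness limits, no upper limit, windows of 500 bp or 2 kb and leaving out identical pairs kept the count within 1.5 times. Over the alternatives that use both replicates, axon guidance genes numbered 4 to 7, synaptic adhesion genes 6 to 8 and zinc finger genes 3 to 5, and ganglion cell fate regulators stayed at 0. Under the reciprocal overlap the retinal progenitor list (Pax6), the SoxD and forkhead list (Sox5, Foxp4, Foxo1) and the signalling list (Ptch1) all fell to 0, TALE genes to 1 and chromatin regulators to 2. Grid1 was lost at a maximum of at least 10. No paired analysis was possible because there is 1 group and no test. Depth is unknown, so weak regions cannot be told from absent ones.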

Other observations

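Some gene families recurred among the hosts, and these were picked after the host genes were seen, so their counts are a description, to be read beside 1.32% of all protein-coding genes and 7.21% of those of 100 kb or longer. Tetraspanins, which organise membrane microdomains, held a region in 4 of 20 genes, with a median span of 30500.5 bp for the family. The 4 hosts were longer than this median, from 45881 bp (Tspan15) to 182183 bp (Tspan9). Tspan14 had maximum signals of 45 and 30 in replicates 1 and 2, Tspan15 had 25 and 32, Tspan9 had 18 and 36 and Tspan18 had 26 and 34. All 4 lay above the lower quartiles of the 290 regions, 11 and 9. Cyclic nucleotide phosphodiesterase genes held a region in 4 of 24, namely Pde4b (34 and 62), Pde10a (17 and 46), Pde1c (55 and 40, and 3 and 4) and Pde5a (7 and 3). Among Eph receptors 3 of 14 did, among teneurins 2 of 4, and among receptor protein tyrosine phosphatases 2 of 20. Among 434 genes named Zfp or Zbtb, 4 did.

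Single regions also lay in genes of signalling in the early nervous system, named after their values were seen. The genes below are examples, and how many hosts fit this description was not counted. Another such host, Wnt7a, held a region ranked only 228 by total signal. Reln, which encodes the secreted guide of neuronal layering reelin, had 43 and 27 with the maxima 10 bp apart (chr5:22093520-22094238). Lrp8, a receptor of reelin, had 26 and 32 at 1507 bp from a gene end (chr4:107803348-107804066). Ror2, a receptor for Wnt5a, had 41 and 40 with the maxima 12 bp apart (chr13:53269904-53270451). Cntfr, the receptor subunit for ciliary neurotrophic factor, had 31 and 29 (chr4:41671875-41672436).

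Very narrow regions with high signal also occurred. The region of Pde1c with 55 and 40 was 92 bp wide with the maxima 0.5 bp apart. That of Kcnh1 with 70 and 53 was 90 bp wide with the maxima 6 bp apart. In regions this narrow the width itself keeps the maxima close, so these distances are not read as agreement between replicates.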
